A study of Homo sapiens with 12 samples.

Results

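The Fos, Jun and early growth response (EGR) transcription factor genes were followed through RNA sequencing of LX-2, a permanent line of human hepatic stellate cells that serves in culture studies of liver scarring. The set holds 10 of the 58735 genes in the gene count table, taken by gene symbol: FOS, FOSB, FOSL1, FOSL2, JUN, JUNB, JUND, EGR1, EGR2 and EGR3. All 10 were among the 18560 genes with enough counts to be tested. There were 3 libraries in each of 4 groups, which were untreated cells (con), cells stimulated with TGF-β1 at 5 ng/ml for 24 h (TGFB), cells transfected with siRNA against the RNA acetyltransferase gene NAT10 (SiNAT10), and cells given that siRNA with Lipofectamine and, after 48 h, TGF-β1 at 5 ng/ml for 24 h (SiNAT10_TGFB). All are LX-2 cells labelled wild type, a single established line. Since no control siRNA appears in the labels, the effects of transfection and of less NAT10 cannot be told apart. The sources used here do not give the time from transfection to harvest for SiNAT10. Replicates are labelled biological, but separate cultures are not named, and p-values then measure the spread between these samples, which may be technical.

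AP-1 is a dimer of basic leucine zipper proteins. Jun proteins can pair with each other or with a Fos protein, whereas Fos proteins need a Jun partner to bind DNA well. The EGR proteins are zinc finger factors that bind GC-rich sites. FOS, FOSB, JUN, JUNB, EGR1, EGR2 and EGR3 are classic immediate early genes, whose transcripts climb within minutes of a growth factor or stress signal and usually fall within hours. FOSL1 (Fra-1), FOSL2 (Fra-2) and JUND are the slower or steadier members. In stellate cells AP-1 and EGR1 are known for their links to activation, matrix protease genes and the response to TGF-β. Here RNA was taken 24 h after the cytokine.

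Total counts per library ran from 25877008 to 35132582, with no siRNA library above 28311434. A count of 3 corresponded to 0.0871 to 0.115 CPM (counts scaled to library size with TMM factors), so among the members EGR2 and EGR3 alone lay near the level where counting error weighs. NAT10 (ENSG00000135372) stood at 62.9, 68.8 and 69.9 CPM in con, 67.8, 65.6 and 67.5 in TGFB, 19.5, 18.5 and 17.9 in SiNAT10, and 19.2, 15.8 and 20.7 in SiNAT10_TGFB, so all 12 libraries matched their siRNA label. Of 13 stellate cell markers, LRAT was at 0 in every library, DES had at most 8 counts and PDGFRA at most 0.497 CPM. COL1A1 ranged from 769 to 7800 CPM (7799.6 in the highest library), VIM from 798 to 1508 and THY1 from 48.6 to 85.8. PDGFRB ranged from 6.32 to 83.9 CPM and COL3A1 from 7.82 to 204. COL1A2 reached at most 7.12 CPM, ACTA2 5.63, HAND2 8.70, LHX2 10.7 and RELN 13.6. The 13 stellate markers summed to 4384 to 4608 CPM in con and 8959 to 9577 in TGFB. With siRNA they summed to 1773 to 1859 CPM in SiNAT10 and 2197 to 2485 in SiNAT10_TGFB. COL1A1 weighed most on the differences, with means of 3041, 7550, 880 and 1364 CPM in the same order. Hepatocyte markers summed to 13.7 to 19.0 CPM without siRNA and 23.1 to 28.6 CPM with it, with TTR at 0, ALB at no more than 4 counts, and nearly all of the sum from SERPINA1. In bulk RNA, fewer expressing cells and less RNA per cell cannot be told apart.

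The bases just upstream of the member genes are shown first. Whether motifs there bear on the changes in level was not tested. RefSeq promoter windows (GRCh38.p14) were matched for 8 of the 10 members and FOSL1 and EGR3 were not matched. In the 250 bases before the start, EGR1 and EGR2 alone of these 8 members had a CArG box, the DNA element to which serum response factor (SRF) binds. Of all 35116 promoter windows, 1.16% held one. Bases farther upstream were not searched, so a CArG box of another member there would not be seen. The stretches below read 5′ to 3′ towards the start, with CArG boxes and the core of the cyclic AMP response element (TGACGT, or ACGTCA on the other strand) in capitals.
EGR1 (chr5:138465359-138465478, plus strand): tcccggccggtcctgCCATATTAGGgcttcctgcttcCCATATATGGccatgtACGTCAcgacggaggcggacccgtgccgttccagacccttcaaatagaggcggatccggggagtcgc
EGR2 (chr10:62816367-62816486, minus strand): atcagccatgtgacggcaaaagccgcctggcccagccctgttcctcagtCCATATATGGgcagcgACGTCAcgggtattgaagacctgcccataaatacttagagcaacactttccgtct
EGR1 held 2 CArG boxes, at positions −105 to −96 and −83 to −74 counted from the base before the RefSeq start as −1, and EGR2 held 1 at −71 to −62. The CArG box nearer to the EGR1 start, CCATATATGG, has the same letters as that of EGR2. Of the 3 EGR2 starts in RefSeq, the other two had no match to any of the 9 motifs searched. EGR1 also had a match to the EGR site GCGNGGGCG at −198 to −190, a motif found in 8.41% of all windows.

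The hexamer TGACGT, found in 7.1% of all windows, lay at like distances in front of several other members. FOS held it at −64 to −59, FOSB at −60 to −55, FOSL2 at −66 to −61, JUND at −87 to −82, EGR2 at −55 to −50 and EGR1 at −67 to −62 and −136 to −131. JUN held TGACATCA at −67 to −60, a match to TGACNTCA, which 6.87% of all windows hold. JUNB held neither, and its match was TATAAA (10.7% of all windows) at −31 to −26, a motif that FOS and FOSB held as well. The stretches below end before the RefSeq start or before any exon of the gene in GENCODE 29, with matches to TGACGT or TGACNTCA in capitals and the rest, TATAAA included, in lower case. For JUN, whose window lies inside the longer GENCODE exon, 30 bases around the match are given.
FOS (chr14:75278654-75278773, plus strand): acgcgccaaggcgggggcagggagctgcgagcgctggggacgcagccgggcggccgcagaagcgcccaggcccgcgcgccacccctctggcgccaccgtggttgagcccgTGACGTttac
FOSB (chr19:45467875-45467994, plus strand): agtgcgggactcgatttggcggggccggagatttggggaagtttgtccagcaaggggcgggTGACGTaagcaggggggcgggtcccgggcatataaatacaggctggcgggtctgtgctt
FOSL2 (chr2:28392682-28392801, plus strand): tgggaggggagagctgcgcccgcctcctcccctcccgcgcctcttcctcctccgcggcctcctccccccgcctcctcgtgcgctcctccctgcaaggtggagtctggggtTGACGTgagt
JUND (chr19:18281623-18281742, minus strand): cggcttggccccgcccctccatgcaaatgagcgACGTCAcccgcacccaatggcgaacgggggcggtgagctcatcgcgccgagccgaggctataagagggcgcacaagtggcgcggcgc
JUN (chr1:58784096-58784125, minus strand): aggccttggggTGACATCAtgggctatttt
JUNB (chr19:12791366-12791485, plus strand): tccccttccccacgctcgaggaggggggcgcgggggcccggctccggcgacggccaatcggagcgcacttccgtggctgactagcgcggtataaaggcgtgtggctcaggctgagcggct
JUND had a further TGACGTCA at −200 to −193, which contains TGACGT on both strands and also matches TGACNTCA. Both strands were searched throughout. No member window held the AP-1 site TGANTCA (6.57% of all windows), the SMAD palindrome GTCTAGAC (0.182%), TTCCNGGAA (0.968%) or an NF-kB site (5.21%). Matches are a description of letters in these windows and not of binding.

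**Figure D1:**
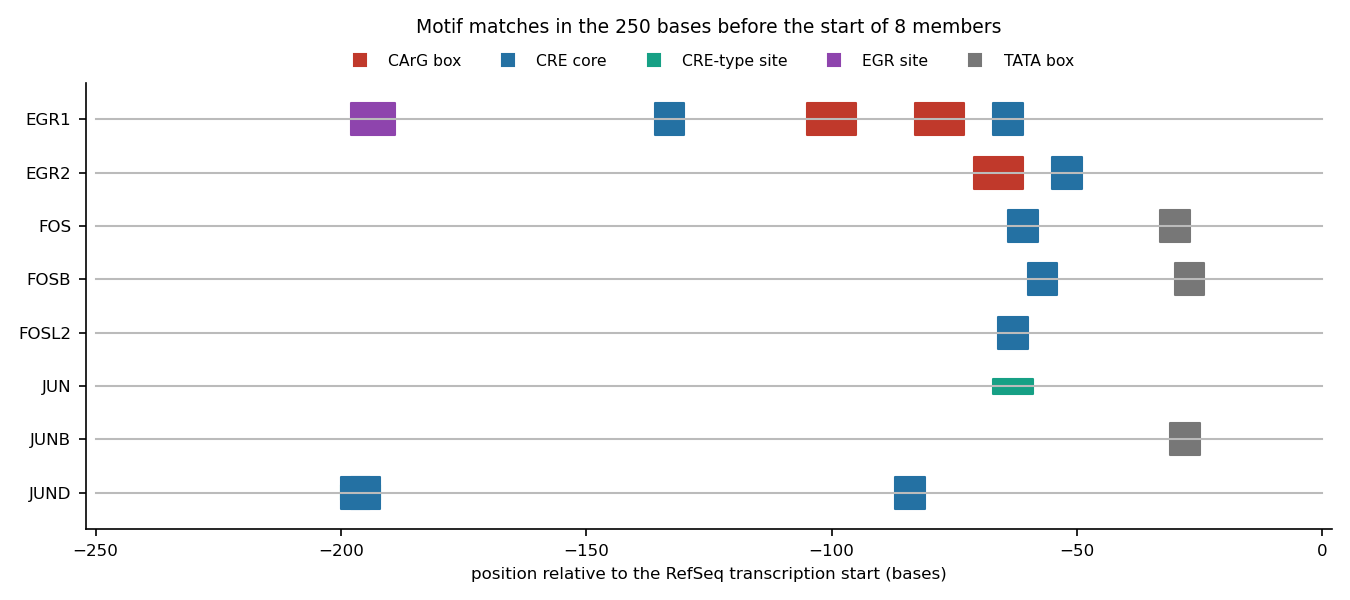
Motif matches (coloured blocks) in the 250 bases before the RefSeq start of 8 members, with position in bases on the x axis and 1 line per gene. CArG boxes appear for EGR1 and EGR2, and a CRE core or CRE-type match lies between −87 and −50 in every gene except JUNB.

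The members differed over a wide range of FPKM, the level per length of all exon bases of a gene (group means over n = 3). The order of genes and the family shares below depend on that choice of length. In con the order was FOSL1 at 162 ± 7.20 FPKM, JUN at 108 ± 1.71, FOSL2 at 66.0 ± 2.25, EGR1 at 37.2 ± 4.01, JUND at 25.4 ± 0.681, JUNB at 13.7 ± 0.855, FOS at 3.15 ± 0.462, FOSB at 1.55 ± 0.124, EGR3 at 0.341 ± 0.0525 and EGR2 at 0.137 ± 0.0595 (SD). No neighbours in that order overlapped in con. In TGFB, JUN led at 120 ± 3.16 FPKM (119.6), and JUNB (68.9 ± 5.24), FOSL1 (68.4 ± 3.66) and EGR1 (64.7 ± 3.83) followed with overlapping libraries. In SiNAT10, FOSL1 led at 217 ± 19.5 FPKM before JUN at 139 ± 13.6, and JUNB, EGR1 and JUND overlapped at 34.0 ± 3.59, 32.8 ± 1.73 and 31.1 ± 3.87. In SiNAT10_TGFB, JUN and FOSL1 overlapped at 138 ± 4.05 and 138 ± 13.5 FPKM, as did FOSL2 and EGR1 at 36.7 ± 2.42 and 35.4 ± 2.67. EGR2 and EGR3 overlapped in SiNAT10, at 0.328 ± 0.0862 and 0.267 ± 0.156 FPKM.

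The make-up of each family shifted with both treatments. Of the summed FPKM of the Fos family, FOSL1 and FOSL2 supplied 69.6% and 28.4% in con, 58.4% and 38.4% in TGFB, 80.3% and 15.2% in SiNAT10, and 73.1% and 19.5% in SiNAT10_TGFB. FOS and FOSB, the immediate early members, were minor in all groups, with at most 4.22% and 3.21% of the family in a group mean. In the Jun family, JUN supplied 73.4% in con, 56.4% in TGFB, 68.1% in SiNAT10 and 58.4% in SiNAT10_TGFB. The share of JUNB was 9.31%, 32.4%, 16.7% and 28.99% in the same order. EGR1 made up 94.96% to 98.7% of the summed EGR FPKM in the 4 group means. The family sums in con, TGFB, SiNAT10 and SiNAT10_TGFB were 233 ± 8.78, 117 ± 4.16, 270 ± 21.2 and 189 ± 14.96 for Fos (270.5 in SiNAT10), 147 ± 1.67, 212 ± 7.43, 204 ± 20.8 and 237 ± 9.01 for Jun, and 37.7 ± 4.03, 68.1 ± 3.88, 33.4 ± 1.66 and 37.2 ± 2.77 for EGR. The Fos sum was thus lowest in TGFB and the EGR sum highest there, with no overlap with any other group.

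**Figure D2:**
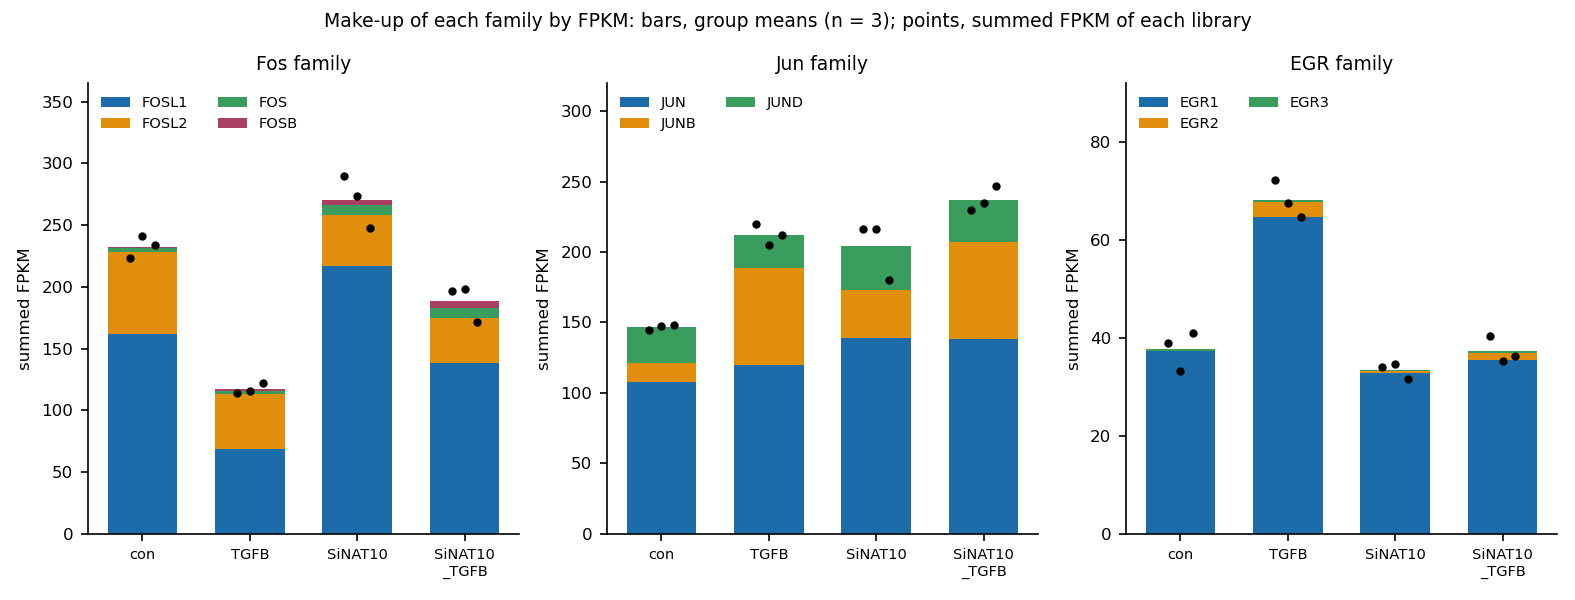
Stacked bars give the group mean FPKM (n = 3) of each member of the Fos, Jun and EGR families, and points the summed FPKM of each library. FOSL1 and FOSL2 make up nearly all of the Fos sum, JUNB widens in both TGF-β1 groups, and EGR1 makes up nearly all of the EGR sum.

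FOS (ENSG00000170345; hg38 chromosome 14, 75278774 to 75282230, plus strand), the founding Fos gene, stood at 8.80, 10.1 and 11.8 CPM in con and at 8.15, 6.18 and 7.70 CPM in TGFB. The SiNAT10 libraries held 25.1, 26.5 and 27.0 CPM and the SiNAT10_TGFB libraries 27.4, 24.6 and 25.0 CPM. All 6 siRNA libraries lay above all 6 others, the TGFB libraries lay just under con, and the 2 siRNA groups overlapped. FOS was 2.56-fold higher in SiNAT10 than in con (log2 fold change 1.36, SE 0.11, adjusted p = 9.10e-10) and 3.50-fold higher in SiNAT10_TGFB than in TGFB (1.81, SE 0.12, adjusted p = 1.04e-11). Here and below log2 fold changes and adjusted p-values are those of the edgeR quasi-likelihood test, adjusted by Benjamini-Hochberg over the 18560 genes, and a gene is said to rise or fall at an adjusted p under 0.05. With TGF-β1 alone FOS fell by 0.48 on the log2 scale (SE 0.12, adjusted p = 0.00526), a call that was lost without con replicate 3 (−0.36, adjusted p = 0.0540). With TGF-β1 in siRNA cells the change was −0.03 (95% interval −0.25 to 0.20).

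FOSB (ENSG00000125740; chromosome 19, 45467995 to 45475179, plus strand), its close immediate early relative, stood at 9.21, 8.77 and 7.87 CPM in con and 7.53, 8.85 and 8.37 CPM in TGFB. It stood at 23.2, 24.5 and 21.6 CPM in SiNAT10 and 37.0, 28.8 and 34.4 CPM in SiNAT10_TGFB. Again all 6 siRNA libraries were the high ones, and here the SiNAT10_TGFB libraries lay above the SiNAT10 libraries without overlap. The siRNA came with a 2.68-fold rise without TGF-β1 (1.42, SE 0.11, adjusted p = 2.37e-10) and a 4.05-fold rise with it (2.02, SE 0.11, adjusted p = 4.99e-13). TGF-β1 came with a 1.45-fold rise in siRNA cells (0.53, SE 0.10, adjusted p = 0.000848), and with a value of −0.06 (95% interval −0.30 to 0.18) in cells without siRNA, where the groups overlapped.

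FOSL1 (ENSG00000175592; chromosome 11, 65892049 to 65900573, minus strand), which encodes Fra-1, was the most abundant Fos gene by FPKM. By mean CPM, which takes no account of length, FOSL2 was higher in con (474 against 306) and TGFB (323 against 129). FOSL1 was higher in SiNAT10 (410 against 294), and the means were alike in SiNAT10_TGFB (260 and 262). FOSL1 stood at 291, 317 and 311 CPM in con, 123, 128 and 136 CPM in TGFB, 443, 415 and 371 CPM in SiNAT10, and 267, 281 and 232 CPM in SiNAT10_TGFB. None of the 4 groups overlapped with another: SiNAT10 was highest and TGFB lowest. FOSL1 fell 2.37-fold with TGF-β1 (−1.25, SE 0.073, adjusted p = 4.51e-12) and 1.58-fold with TGF-β1 in siRNA cells (−0.66, SE 0.072, adjusted p = 4.51e-07). It rose with siRNA by 0.42 (SE 0.072, adjusted p = 3.18e-05) and, under TGF-β1, by 1.01 (SE 0.073, adjusted p = 6.02e-11).

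FOSL2 (ENSG00000075426; chromosome 2, 28392448 to 28417312, plus strand), which encodes Fra-2, was the one Fos gene that fell with each treatment. It stood at 468, 492 and 462 CPM in con and 323, 319.7 and 325 CPM in TGFB. In SiNAT10 it stood at 303, 299 and 279 CPM, and in SiNAT10_TGFB at 281, 259 and 247 CPM. The con libraries were the 3 highest, and the 2 siRNA groups overlapped. FOSL2 fell by 0.55 with TGF-β1 (SE 0.057, adjusted p = 6.41e-08), by 0.69 with siRNA (SE 0.057, adjusted p = 6.14e-10) and by 0.30 with siRNA under TGF-β1 (SE 0.057, adjusted p = 0.000112). With TGF-β1 in siRNA cells the value of −0.16 missed the threshold (adjusted p = 0.0717). It passed with DESeq2 (adjusted p = 0.0442), upper quartile scaling (0.0468), scaling to library size alone (0.0101) or the GC trend removed (0.00203, or 0.00265 with the replicate block too), and without SiNAT10 replicate 3 (−0.20, adjusted p = 0.0232) or SiNAT10_TGFB replicate 1 (−0.21, adjusted p = 0.0214).

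**Figure D3:**
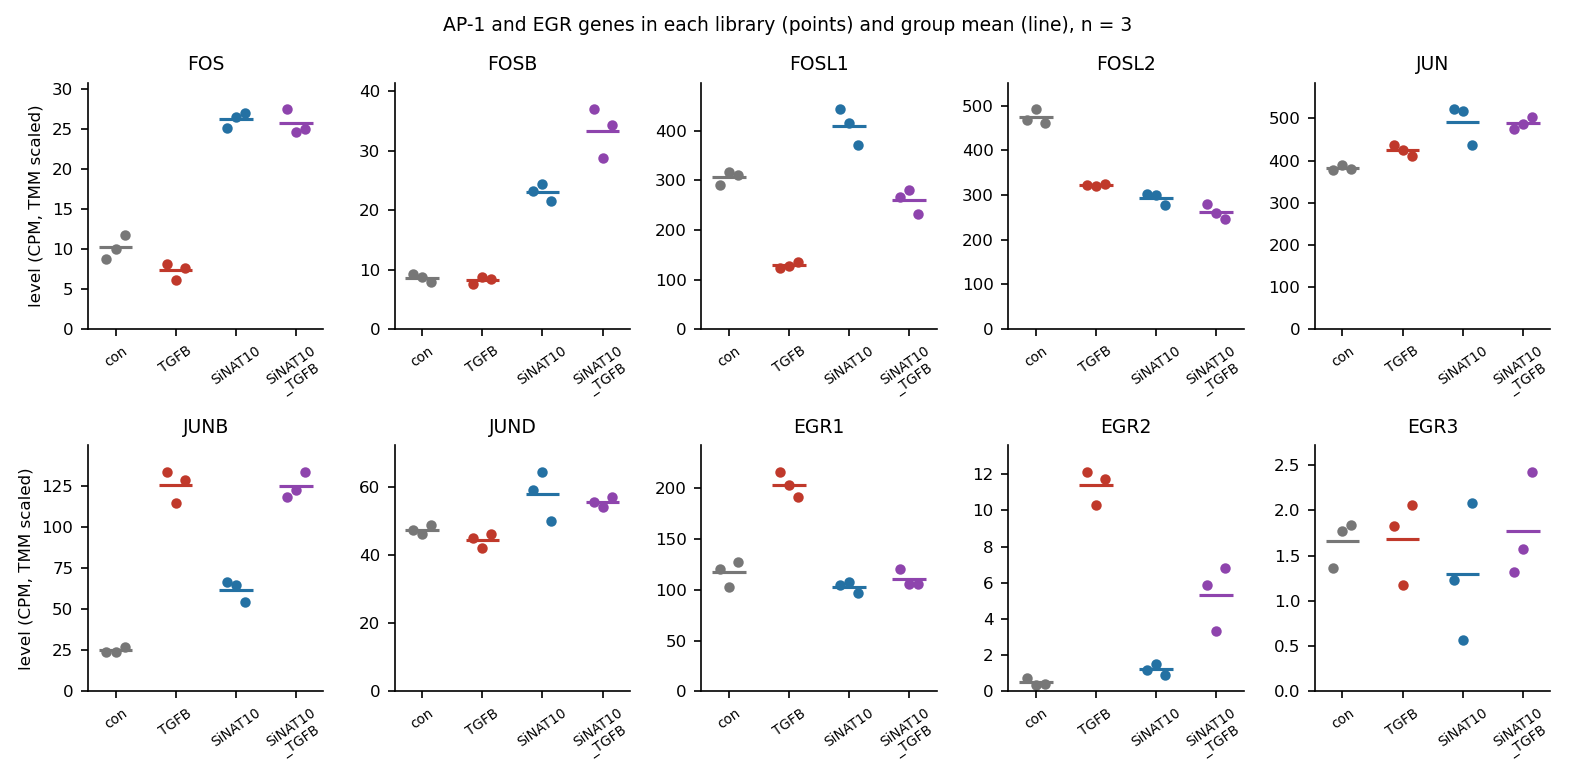
Level of each of the 10 members in CPM with TMM scaling (y axis, from 0) by group (x axis), with points for the 3 libraries and a line at their mean. FOS and FOSB are high in both siRNA groups, JUNB in both TGF-β1 groups, and EGR1 and EGR2 are highest in TGFB.

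JUN (ENSG00000177606; chromosome 1, 58780788 to 58784327, minus strand), the founding Jun gene and the most abundant one, changed little. It stood at 377, 389 and 381 CPM in con, 437, 424 and 412 CPM in TGFB, 521, 519 and 436 CPM in SiNAT10, and 475, 486 and 504 CPM in SiNAT10_TGFB. The con libraries were the 3 lowest and the 2 siRNA groups overlapped. JUN rose 1.29-fold with siRNA (0.36, SE 0.061, adjusted p = 2.34e-05) and 1.15-fold with siRNA under TGF-β1 (0.20, SE 0.061, adjusted p = 0.00708). With TGF-β1 alone the value of 0.15 missed the threshold (adjusted p = 0.0766) although the libraries did not overlap. It passed with the 2 groups alone (0.15, adjusted p = 0.00934) and with protein-coding genes alone (0.17, adjusted p = 0.0345). It also passed without SiNAT10 replicate 3 (0.15, adjusted p = 0.0176), a library outside the comparison that enters the shared estimate of the spread. Over all settings the value ran from 0.015 to 0.17.

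JUNB (ENSG00000171223; chromosome 19, 12791496 to 12793315, plus strand), which encodes a Jun protein with weaker activating power than JUN, was the Jun gene that moved most. It stood at 24.3, 23.8 and 26.8 CPM in con and at 133, 115 and 129 CPM in TGFB. In SiNAT10 it stood at 66.4, 64.98 and 54.4 CPM, and in SiNAT10_TGFB at 118, 123 and 134 CPM. The con libraries were lowest, the SiNAT10 libraries lay between, and the 2 TGF-β1 groups were highest and overlapped. JUNB rose 5.04-fold with TGF-β1 (2.33, SE 0.085, adjusted p = 7.36e-16), 2.48-fold with siRNA (1.31, SE 0.085, adjusted p = 9.72e-12) and 2.02-fold with TGF-β1 in siRNA cells (1.01, SE 0.080, adjusted p = 2.23e-09). Under TGF-β1 the siRNA difference was −0.01 (95% interval −0.17 to 0.15). Of the JUNB exon bases 14.2% overlap HOOK2 on the other strand, and the sources used here do not say whether counting used strand. HOOK2 averaged 18.3, 19.1, 14.2 and 13.4 CPM in con, TGFB, SiNAT10 and SiNAT10_TGFB, and its part in the JUNB counts was not tested.

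JUND (ENSG00000130522; chromosome 19, 18279760 to 18281622, minus strand), the steadiest Jun gene in most cells, stood at 47.3, 46.2 and 48.8 CPM in con and 45.1, 42.1 and 46.1 CPM in TGFB. It stood at 59.1, 64.5 and 50.1 CPM in SiNAT10 and 55.5, 54.2 and 57.2 CPM in SiNAT10_TGFB. The siRNA libraries were the 6 highest. JUND rose by 0.29 with siRNA (SE 0.080, adjusted p = 0.00445) and by 0.33 with siRNA under TGF-β1 (SE 0.081, adjusted p = 0.00160), and the first of these calls was lost without SiNAT10 replicate 2 (0.20, adjusted p = 0.0593). TGF-β1 came with values of −0.10 (95% interval −0.26 to 0.07) without siRNA and −0.06 (−0.22 to 0.11) with it.

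EGR1 (ENSG00000120738; chromosome 5, 138465490 to 138469315, plus strand), the most abundant EGR gene, stood at 121, 103 and 127 CPM in con and 216, 203 and 191 CPM in TGFB. It stood at 105, 107 and 96.8 CPM in SiNAT10 and 120.5, 106 and 106 CPM in SiNAT10_TGFB. The 3 TGFB libraries were high, and the other 3 groups overlapped with one another. EGR1 rose 1.74-fold with TGF-β1 (0.80, SE 0.076, adjusted p = 2.22e-08) and was 1.83-fold lower with siRNA under TGF-β1 (−0.88, SE 0.077, adjusted p = 1.51e-09). With TGF-β1 in siRNA cells the value was 0.11 (95% interval −0.05 to 0.27). The siRNA difference without TGF-β1 was −0.19 (SE 0.077) with overlapping libraries, and its adjusted p of 0.0464 passed the threshold narrowly. It did not pass with RLE (0.0508), upper quartile (0.106) or library size (0.172) scaling, the stricter filter (0.0543), or DESeq2 (0.0588). Nor did it pass with voom (0.0519) or on FPKM (0.0918 to 0.188), both by limma. The call was also lost with the 2 groups alone (0.0692), protein-coding genes alone (0.0764), the replicate block (0.0514) or the GC trend removed (0.802). Leaving out 1 of 4 libraries lost it too, namely con replicate 1 (0.120) or 3 (0.241), replicate 3 of SiNAT10 (0.136) or replicate 2 of SiNAT10_TGFB (0.0529).

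EGR2 (ENSG00000122877; chromosome 10, 62811996 to 62919900, minus strand), best known from myelinating cells and lymphocytes, had the widest range of the 10 members. It stood at 0.755, 0.333 and 0.437 CPM in con, which are 26, 10 and 14 counts, and at 12.1, 10.3 and 11.7 CPM in TGFB. In SiNAT10 it stood at 1.20, 1.54 and 0.895 CPM, and in SiNAT10_TGFB at 5.86, 3.34 and 6.81 CPM. None of the 4 groups overlapped, in the order TGFB, SiNAT10_TGFB, SiNAT10 and con. EGR2 rose 21.9-fold with TGF-β1 (4.45, SE 0.28, adjusted p = 1.62e-11), and 0.194% of all genes tested had a larger absolute log2 fold change in that comparison. In siRNA cells it rose 4.41-fold with TGF-β1 (2.14, SE 0.26, adjusted p = 2.14e-06). The siRNA came with a rise of 1.22 without TGF-β1 (SE 0.34, adjusted p = 0.00389) and a fall under it (−1.09, SE 0.22, adjusted p = 0.000176).

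EGR3 (ENSG00000179388; chromosome 8, 22687659 to 22693302, minus strand) was scarcely expressed. It ranged from 0.571 CPM, or 16 counts, to 2.43 CPM, or 67 counts, over the 12 libraries. All groups overlapped and no comparison passed the threshold. The widest 95% interval of the 4 pairwise comparisons, for SiNAT10_TGFB against SiNAT10, ran from −0.30 to 1.20, so a rise as large as the 1.01 of JUNB there lies within it. An antisense gene, AC055854.1, covers 3.4% of its exon bases.

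**Figure D4:**
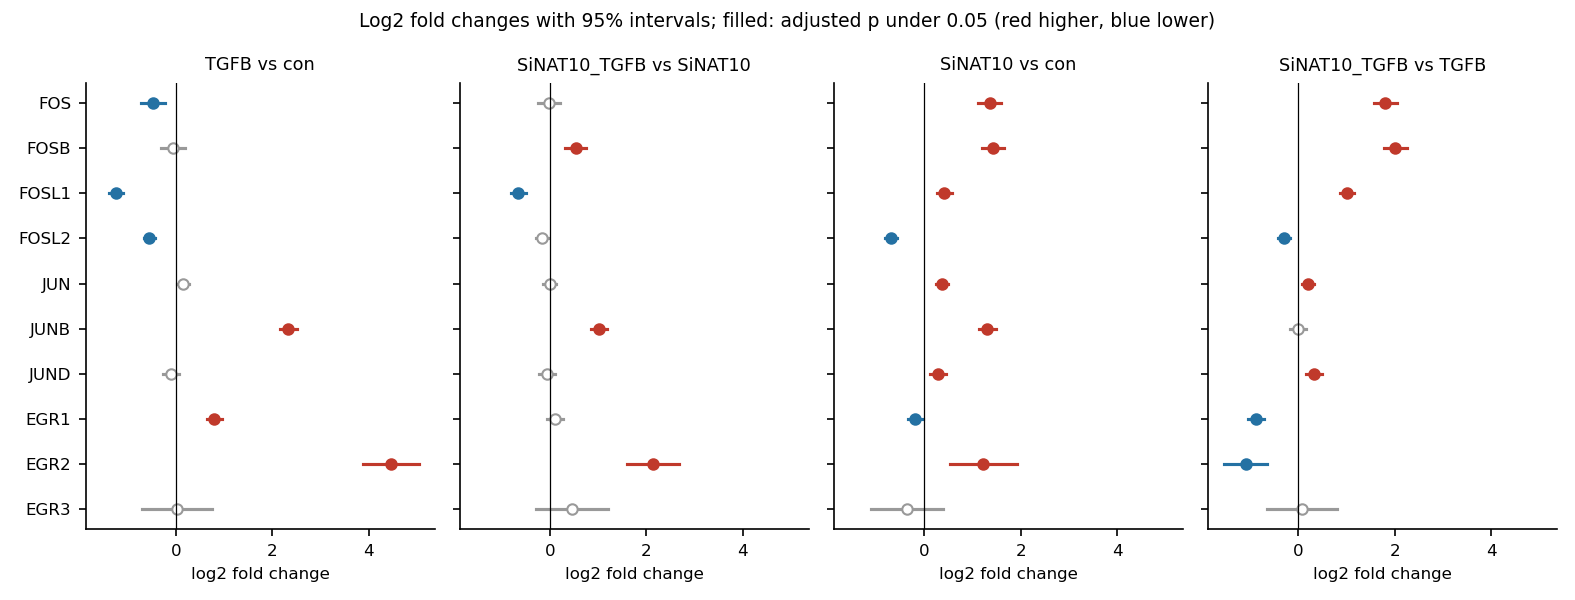
Log2 fold changes of the 10 members (points) with 95% intervals (bars) in 4 comparisons. Filled points passed an adjusted p under 0.05, in red where higher and blue where lower, and EGR2 with TGF-β1 at 4.45 and JUNB at 2.33 lie farthest to the right.

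Comparing TGFB with con addresses what 24 h of TGF-β1 left in cells that had no siRNA. Of the 10 members, 6 passed the test, beside 24.1% of all genes: JUNB, EGR1 and EGR2 rose, and FOS, FOSL1 and FOSL2 fell. Over all genes 11.9% were higher and 12.2% lower. With scaling to library size alone, which put the median of all genes at −0.14, the higher share of all calls was 23.4% instead of 49.5%, and 3 members were higher and 4 lower, JUND being added among the lower ones (−0.23). The members' median log2 fold change was −0.02, beside −0.0065 for all genes. Of the 11 EGR target genes tested, 8 rose and 1 fell (median 0.76), including the matrix glycoprotein gene THBS1 (2.42, SE 0.056) and the growth factor gene VEGFA (1.71, SE 0.076), with the coagulation factor gene F3 as the one that fell (−1.15, SE 0.056). Of 18 AP-1 target genes, 9 rose and 5 fell (median 0.16). The cytokine genes IL6 (2.40, SE 0.097) and LIF (2.10, SE 0.091) were among those that rose, and the interstitial collagenase gene MMP1 (−1.09, SE 0.071) and the chemokine gene CXCL8 (−0.85, SE 0.12) among those that fell. Of the 11 other AP-1 type zipper genes tested, 5 rose and 2 fell, with MAFK at 1.01 (SE 0.079). Among 20 other immediate early genes 9 rose and 2 fell, with IER3 at 1.47 (SE 0.059), GADD45B, a stress response gene, at 1.66 (SE 0.067), and the phosphatase subunit gene PPP1R15A at −0.73 (SE 0.061) and IER5 at −0.26 (SE 0.059). SRF, ELK3 and MRTFA, 3 of the 6 genes of the SRF and ternary complex list, rose by 0.69, 0.66 and 0.95 (SE 0.084, 0.065 and 0.083) and none of that list fell. SRF is counted among the other immediate early genes as well. TGFB1 and CCND1 are in both the AP-1 and the EGR target list, so the counts of these lists are not separate. NAB2 is counted both as an EGR target and as an EGR corepressor gene. Antisense genes overlap 7.6% of the exon bases of THBS1 and of MMP1, 18.1% of those of MAFK, 20.7% of IL6 and 26.5% of IER3, and, among genes named below, 10.3% of CCND1, 11.5% of MAP2K1, 23.6% of ICAM1, 24.4% of VIM and 31.1% of PLAU, so the counts of these genes are less certain.

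The MAP kinase list holds the kinases that activate AP-1 and ternary complex factors. Of the 19 genes tested 3 rose and 2 fell with TGF-β1 (median −0.08), which is 5 genes beside the 24.1% called among all genes. MAPK9, MAP2K1 and MAPK13 rose by 0.35, 0.19 and 0.48 (SE 0.061, 0.057 and 0.14), and MAP2K4 and MAP2K3 fell by 0.29 and 0.22 (SE 0.063 and 0.067). The EGR corepressor genes NAB1 and NAB2 did not pass the test.

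Comparing SiNAT10 with con addresses the effect of NAT10 siRNA in cells without the cytokine. Of the 10 members, 9 passed the test, beside 52.8% of all genes (26.4% higher and 26.4% lower). FOS, FOSB, FOSL1, JUN, JUNB, JUND and EGR2 rose, and FOSL2 and, narrowly, EGR1 fell. The members' median was 0.39, beside 0.019 for all genes. The zipper gene ATF3, whose protein can pair with Jun, stood at 17.5 CPM in con and 52.1 in SiNAT10, a rise of 1.57 (SE 0.076), and 4 of the 11 other zipper genes rose and 4 fell. Of the 20 other immediate early genes 15 rose and 2 fell (median 0.86), and the smallest p-values among those that rose were those of the pseudokinase gene TRIB1 (1.99, SE 0.082) and PPP1R15A (1.48, SE 0.061). SRF, whose protein is known to bind CArG boxes, moved the other way: it averaged 110 CPM (109.8) in con and 32.5 in SiNAT10, a fall of 1.76 on the log2 scale (SE 0.090, adjusted p = 1.72e-13). With it MRTFB, ELK3, MRTFA and ELK1 fell (−0.94, −0.60, −0.64 and −0.39), so that 5 of the 6 genes of that list fell and none rose. Of 18 AP-1 target genes 12 rose and 3 fell (median 0.72), with MMP1 at 3.40 (SE 0.071), CXCL8 at 2.98 (SE 0.12), the vimentin gene VIM at −0.60 (SE 0.054) and TGFB1 at −0.66 (SE 0.078). Of 11 EGR target genes 4 rose and 6 fell (median −0.32), with VEGFA at 1.30 (SE 0.076), the adhesion gene ICAM1 at 1.20 (SE 0.073), the tenascin C gene TNC at −1.01 (SE 0.065) and THBS1 at −0.81 (SE 0.054). NAB2 fell by 1.06 (SE 0.12), and NAB1 rose by 0.30 (SE 0.083). Of 19 MAP kinase genes 7 rose and 7 fell, with MAPK8 at 0.49 (SE 0.061) and MAPK11 at −1.52 (SE 0.11).

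Comparing SiNAT10_TGFB with TGFB asks the same under the cytokine. Of the 10 members, 8 passed, beside 53.1% of all genes (26.3% higher and 26.8% lower): FOS, FOSB, FOSL1, JUN and JUND rose, and FOSL2, EGR1 and EGR2 fell. The members' median was 0.14, beside 0.0080 for all genes. With scaling to library size alone, which put the median of all genes at 0.14, the higher share of all calls was 61.3% instead of 49.6%, and the members called stayed at 5 higher and 3 lower. Of the 11 other AP-1 type zipper genes tested, 5 rose, ATF3 by 1.62 (SE 0.075), and 4 fell. SRF fell by 2.05 (SE 0.089) together with 4 others of its list of 6, while ELK4 rose by 0.35 (SE 0.10). Of the other immediate early genes 12 of 20 rose and 3 fell, with PPP1R15A at 2.08 (SE 0.063) and MCL1 at 0.96 (SE 0.057) beside SRF and CYR61 (−0.70, SE 0.055). Of the AP-1 targets 11 of 18 rose and 3 fell, with MMP1 at 3.00 (SE 0.072), CXCL8 at 3.77 (SE 0.12), LIF at −1.84 (SE 0.090) and TGFB1 at −1.19 (SE 0.077). Of the EGR targets 3 of 11 rose and 5 fell, with ICAM1 at 1.43 (SE 0.073), VEGFA at 0.74 (SE 0.072), THBS1 at −1.68 (SE 0.054) and TNC at −1.41 (SE 0.065).

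Both siRNA comparisons carried a trend with the GC content of the transcripts, and the members span it. Across genes the rank correlation of GC content with the log2 fold change was −0.33 for SiNAT10 against con and −0.35 for SiNAT10_TGFB against TGFB, and the 1127 genes of over 62% GC with enough counts had medians of −0.54 and −0.58. JUND (69.7% GC), JUNB (64.9%) and FOSL1 (60.0%) lie at the high end, and EGR2 (50.9%), EGR3 (51.9%) and FOS (52.6%) lower. With the trend of each library removed, the siRNA changes without and with TGF-β1 became 0.87 and 0.98 for JUND, 1.84 and 0.56 for JUNB, 0.81 and 1.42 for FOSL1, and 0.60 and 0.45 for JUN. JUNB then passed the test as higher in SiNAT10_TGFB than in TGFB (adjusted p = 1.12e-08), where the uncorrected value was −0.01. The EGR1 difference without TGF-β1 was −0.02 (adjusted p = 0.802), and under TGF-β1 it stayed lower at −0.70. The FOS changes were 1.39 and 1.85, and those of FOSB 1.71 and 2.31. The trend applies to the listed genes as well, for which values with it removed are not given. Of those named as lower with siRNA, TGFB1 (63.5% GC), MAPK11 (62.9%), NAB2 (62.6%) and SRF (60.9%) lie high. Others named as lower, such as VIM (46.9%) and THBS1 (45.6%), do not. Whether the trend is technical was not tested.

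Comparing SiNAT10_TGFB with SiNAT10 gives the TGF-β1 change in siRNA cells. Of the 10 members, 4 passed, beside 11.1% of all genes (5.92% higher and 5.15% lower): FOSB, JUNB and EGR2 rose and FOSL1 fell. The members' median was 0.05, beside −0.0042 for all genes. With scaling to library size alone the higher share of all calls was 36.7% instead of 53.5%, and FOSL2 joined the members that were lower (−0.22). Of the EGR targets 7 of 11 rose and 1 fell, with THBS1 at 1.54 (SE 0.055), PDGFB at 1.82 (SE 0.10) and F3 at −0.87 (SE 0.056). Of the AP-1 targets 8 of 18 rose and 2 fell, with TGFB1 at 0.89 (SE 0.078), the urokinase gene PLAU at 0.50 (SE 0.066), MMP1 at −1.49 (SE 0.066) and MMP3 at −1.74 (SE 0.30). SRF, ELK3 and MRTFA rose by 0.40, 0.33 and 0.70 (SE 0.091, 0.066 and 0.086). SIK1, a kinase gene of the immediate early list, rose by 1.26 (SE 0.13) and GADD45B by 0.51 (SE 0.065), and 7 of the 20 genes of that list rose and none fell.

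Whether the TGF-β1 change itself differed between siRNA and no siRNA was tested by the interaction, the log2 change in siRNA cells minus that without. Of the 10 members, 6 passed, beside 3.85% of all genes (1.94% higher and 1.91% lower), 3 in each direction. The rise with TGF-β1 was smaller in siRNA cells for EGR2 (2.14 against 4.45, difference −2.31, SE 0.40, adjusted p = 0.000880), JUNB (1.01 against 2.33, difference −1.32, SE 0.12, adjusted p = 7.48e-08) and EGR1 (0.11 against 0.80, difference −0.69, SE 0.11, adjusted p = 0.000294). For JUNB the starting level was higher in siRNA cells by 1.31. The level JUNB reached differed by −0.01, or by 0.56 with the GC trend removed (adjusted p = 1.12e-08 by edgeR). EGR2 also started higher in siRNA cells (1.22), but the level it reached was lower (−1.09). For EGR1 the level reached was lower (−0.88), and the starting level was narrowly called lower (−0.19). The fall with TGF-β1 was smaller for FOSL1 (−0.66 against −1.25, difference 0.59, SE 0.10, adjusted p = 0.000913) and FOSL2 (−0.16 against −0.55, difference 0.39, SE 0.080, adjusted p = 0.00453). In siRNA cells FOSL1 started higher (0.42) and reached a higher level (1.01), while FOSL2 started lower (−0.69) and reached a lower level (−0.30). FOSB had a positive difference (0.53 against −0.06, difference 0.59, SE 0.16, adjusted p = 0.0293), which no longer passed without con replicate 1 or 2, TGFB replicate 1 or 3, or SiNAT10_TGFB replicate 1 or 3 (adjusted p = 0.0526 to 0.0991). FOS, with a difference of 0.45 (SE 0.16), missed the threshold (adjusted p = 0.152), as did JUN at −0.16 (0.382), which passed without SiNAT10 replicate 3 (−0.24, adjusted p = 0.0445). JUND and EGR3 did not pass either, at 0.04 (95% interval −0.20 to 0.27) and 0.43 (−0.61 to 1.47). With scaling to library size alone the higher share of all calls was 68.9% instead of 50.4%, and the members called stayed at 3 in each direction.

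**Figure D5:**
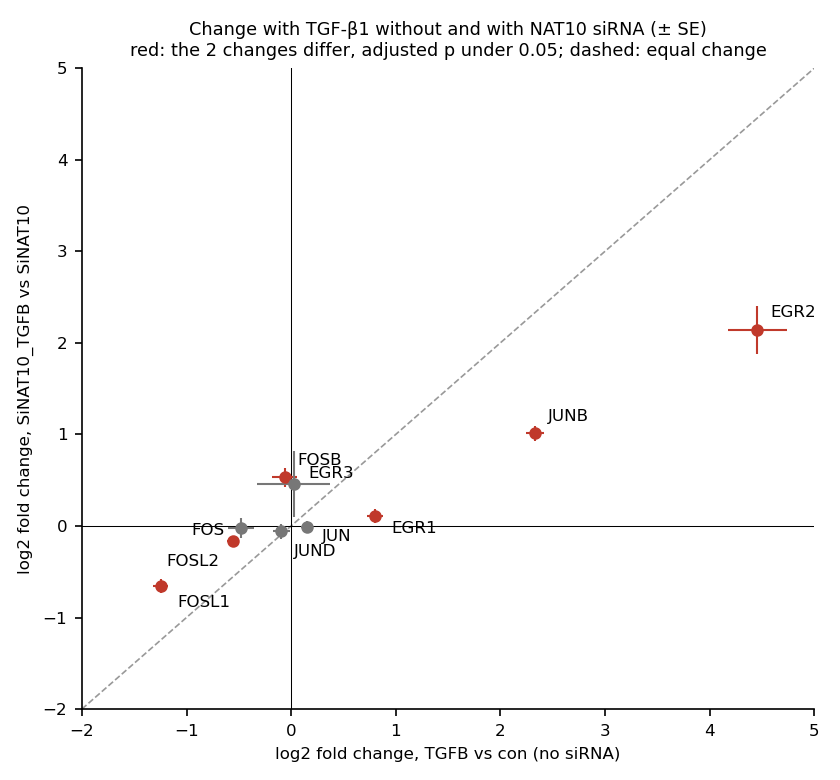
Log2 fold change with TGF-β1 without siRNA (x axis) and with NAT10 siRNA (y axis) for the 10 members, with SE bars and a dashed line of equal change. Red points mark the 6 members whose changes differed, with EGR2, JUNB and EGR1 below the line and FOSL1, FOSL2 and FOSB above it.

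In the interaction, of 11 EGR targets 1 was higher and 5 lower, with F3 at 0.29 (SE 0.079), THBS1 at −0.87 (SE 0.075) and the cyclin D1 gene CCND1 at −0.49 (SE 0.071). Of the other 20 immediate early genes 1 was higher and 6 lower, with PPP1R15A at 0.60 (SE 0.085), IER3 at −1.06 (SE 0.081) and GADD45B at −1.15 (SE 0.093). Of 18 AP-1 targets 2 were higher and 6 lower, with CXCL8 at 0.78 (SE 0.16), CD44 at 0.26 (SE 0.073), IL6 at −1.92 (SE 0.13) and LIF at −1.70 (SE 0.13). None of 19 MAP kinase genes passed.

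Across the 12 libraries the members fell into a few patterns, given here as a description, since the libraries share 4 group means. On log2 CPM, FOS and FOSB correlated at r = 0.93, JUNB and EGR2 at r = 0.93, and FOSL1 and EGR1 at r = −0.92 (Pearson, n = 12). Among 14142 genes with a mean of at least 1 CPM, those most like EGR2 were SPSB1 (r = 0.98), ANKRD1 (0.97) and DMD (0.97). Those most like JUNB were BHLHE40 (0.996), P4HA2 (0.99) and SPHK1 (0.99). For FOSB they were ZNFX1 (0.99), WNT7B (0.99) and ZNF264 (0.99), and for FOS PDE2A (0.99), RWDD2A (0.99) and G0S2 (0.99).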

How the data were processed

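The authors deposited gene counts and FPKM of 58735 genes in 12 libraries. Per the submitters' processing notes, the tools behind the counts were fastp and HISAT2 2.2.1, with build hg38. The sources used here do not give the counting tool or its strand setting. The FPKM deposited by the authors differed from FPKM recomputed here by 1 constant per library (0.933 to 1.09), and served to order genes by level and as an alternative unit. All 58735 genes had GENCODE 29 coordinates.

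The deposited counts went into edgeR 4.0.16 (R 4.3.3). The function filterByExpr kept 18560 genes, TMM gave the scaling, and 1 quasi-likelihood fit of 4 group means gave 4 comparisons and the interaction, each with Benjamini-Hochberg adjustment. The SE is the log2 fold change divided by the square root of F. Alternatives were other scalings and filters, DESeq2 1.42.0, voom and FPKM with limma 3.58.1, removal of a GC spline from each library, a replicate block, the threshold of 0.01, protein-coding genes alone, the 2 groups alone and omission of each library. The pipeline was tested on simulated data with 200 changed genes, drawn from genes above a minimum mean count. The simulated data held no GC trend, so that test does not bear on the trend or on genes of lower counts. Members and gene lists were chosen with earlier results of these data known. Other genes are named from at most the 2 called genes of smallest p per list, direction and comparison, or from all where a list has 5 or fewer calls, and as the 3 most like each of the 4 members of widest range. The values of 1 gene among the other AP-1 type zipper genes are not reported here.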

Additional observations from a re-analysis of the deposited data

Results flagged for a closer look

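For 6 members the change with TGF-β1 differed between cells with and without NAT10 siRNA by edgeR's quasi-likelihood test of the interaction. The log2 change with siRNA minus that without was −2.31 for EGR2, −1.32 for JUNB, −0.69 for EGR1, 0.59 for FOSB, 0.59 for FOSL1 and 0.39 for FOSL2. The FOSB difference also missed the threshold with voom (adjusted p = 0.0547) and on FPKM with a pseudocount of 0.1 (adjusted p = 0.0874, both by limma). These differences hold transfection and knockdown together.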

How the results depend on the processing

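Of 1390 values of members over 28 alternatives, 1340 kept their side of the threshold and, where called, their direction. A further 36 lost a call, 12 gained one, and 2 reversed. Changes of direction between values that did not pass are counted among the 1340. One such case was FOS in SiNAT10_TGFB against SiNAT10, which ran from −0.088 to 0.0031. The reversals were JUNB in SiNAT10_TGFB against TGFB with the GC trend removed (0.56, adjusted p = 1.12e-08 by edgeR) and with the replicate block and the GC trend removed (0.56, adjusted p = 2.24e-08). They run against −0.01 and follow from the correction, which raises GC-rich genes in the siRNA libraries. Members called ranged from 5 to 7 for TGFB against con, 7 to 9 for SiNAT10 against con, 8 to 9 for SiNAT10_TGFB against TGFB, 4 to 5 for SiNAT10_TGFB against SiNAT10 and 4 to 7 for the interaction. EGR2 in SiNAT10 against con lost its call on FPKM with a pseudocount of 1 (0.22, adjusted p = 0.165 by limma), a scale that shrinks low genes. FOSL1 in the interaction lost it on that scale without a filter (adjusted p = 0.0543 by limma).

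Of all genes, the interaction called 714, and 424 on unfiltered FPKM (pseudocount 1), 1368 with the GC trend removed, 1220 with the replicate block and the GC trend removed, and 383 at an adjusted p under 0.01. SiNAT10_TGFB against SiNAT10 called 2054, and 1302 at 0.01. No link between libraries of the same replicate number was seen, though 3 libraries per group cannot exclude one. Same-numbered deviations correlated at −0.073 to 0.048, 0 of 18 pairs were over 0.1, and 1 of 12 libraries correlated best with its own number. With the replicate block 4113, 9459, 9579, 1806 and 591 genes were called in the 4 comparisons and the interaction, and the members' calls changed for FOSB in the interaction (adjusted p = 0.0543) and EGR1 in SiNAT10 against con (adjusted p = 0.0514, both by edgeR).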
